A study of Mus musculus with 62 samples.

Results

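The endothelial genes described here are a set of 41 genes that mark blood vessel lining cells of the lung or act in them, measured in whole-lung RNA of mice challenged with a house dust mite allergen. They were chosen by name, with earlier results of these data known. A gene was taken as measured where a transcript cluster of the array (all probes assigned to 1 gene) carried its symbol and no other. That held for 40 of the 41, each with 1 such cluster, among 14824 genes with a single-symbol cluster in all; Flt4, a receptor of lymphatic vessels, had none and was not measured. In all, 48 male mice were measured on 62 Affymetrix exon arrays, each with RNA of 1 right lower lobe of the lung. All 48 mice had been sensitised by intraperitoneal injection of 10 µg Der p 1, a cysteine protease of the house dust mite, on days 1 and 8. The BALB/cJ Der p 1 group (14 mice) and the C57BL/6J Der p 1 group (12 mice) were challenged with 50 µg Der p 1 on day 15. The BALB/cJ PBS group (11 mice) and the C57BL/6J PBS group (11 mice) received phosphate-buffered saline (PBS) at that step, so the controls were sensitised animals and no untreated lung was compared. Lungs were taken on day 18, 72 hours after the challenge; both strains are inbred, and no age is given for the animals. The question was which endothelial genes differed after the challenge, within each strain and between the strains.

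Endothelial cells line every vessel of the lung, from arteries to the dense capillary bed of the alveoli, and hold the barrier between blood and tissue. Their identity and quiescence are kept by a small set of receptors (for vascular endothelial growth factor, the angiopoietins and BMP9), by junction proteins, by Notch and ephrin signals that set arteries apart from veins, and by transcription factors of the ETS and SOX families. When tissue is inflamed, venular endothelium displays selectins and other adhesion proteins that slow passing leukocytes and let them leave the blood.

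The lungs carried the markers of these cells: Cdh5, Pecam1, Tie1, Tek and Kdr, the 5 genes taken as defining, had mean signals above those of 96.8% to 99.4% of all 16715 clusters. Repeat arrays of a mouse varied with a median SD of 0.144 log2 units over the 40 genes, against 0.331 between mice of a group. In 6 genes (Apln, Icam2, Ramp2, Hey1, Sele and Erg) the variance between repeat arrays was still more than 50% of that between mice. All values are deposited log2 signals, and a difference of 1 log2 unit is a doubling. The probes of 2 genes are not alike, so differences are taken between mice. A gene's rank among all clusters is only a rough guide to how bright it is. In whole-lung RNA, fewer endothelial cells and less RNA per endothelial cell cannot be told apart. The labels do not say whether the mice of a group came from separate litters or cages. Mouse numbers in the titles begin with 5 or with 6, and the labels used here do not say what this number series stands for; 16 of the 40 genes (40%) differed in level between the series, as did 62.5% of all clusters. A pair of BALB/cJ mice of series 6 ran against the rest: mouse633 (PBS) held the lowest value of its group in 21 of the 40 genes, and mouse634 (Der p 1) the highest value of its group in 14. Other mice also held many of the extremes: mouse538 (C57BL/6J Der p 1) was highest in 16 genes, and mouse643 (C57BL/6J PBS) and mouse624 (BALB/cJ Der p 1) were lowest in 14 each. Whether the group labels of mouse633 and mouse634 are right was not tested, and both were kept as labelled. Some BALB/cJ results are also given without them; since they were picked for values that run against their groups, leaving them out enlarges the differences by construction and lends them no support.

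After the challenge with Der p 1, genes of several endothelial signalling systems were lower and the selectins higher. Averaged over both strains, 18 of the 40 genes fell and 2 rose (limma, Benjamini-Hochberg adjusted p under 0.05 over all clusters), where 19.4% of all clusters passed, 9.8% lower and 9.56% higher. The median difference, Der p 1 minus PBS, was -0.22 over the 40 genes and 0.02 over all clusters; 33 of the 40 differences lay below 0, against 44.0% of clusters. In C57BL/6J alone 14 genes fell and 2 rose, where 18.8% of clusters passed (8.97% lower, 9.85% higher), and the median was -0.24 against 0.07 over all clusters. The size of this gap depended on the scaling: with quantile normalization of the deposited values these medians were -0.13 and 4e-04. With each array centred on its median, 19 endothelial genes fell and 2 rose in C57BL/6J, where 12.9% of clusters were lower and 6.39% higher. The share of C57BL/6J calls that were lower was then 66.8% of all calls, against 47.7% as deposited. For the mean of both strains that share was 65.5% with centring and 50.6% as deposited. Quantile normalization of the deposited values ended the calls of Cdh5, Robo4, Eng, Acvrl1, Erg and Ephb4 for the mean of both strains, leaving 12 genes lower and 3 higher (Vwf was the added one) where 11.4% of clusters were lower and 9.45% higher, and those of Cdh5 (adjusted p = 0.202) and Ephb4 (adjusted p = 0.342) in C57BL/6J.

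In BALB/cJ alone 4 genes fell (Efnb2, Tek, Aplnr and Esm1) and 1 rose (Selp), where 1.93% of clusters passed, 0.233% lower and 1.7% higher. The median difference was -0.18, against -0.03 over all clusters, and 32 of the 40 lay below 0, against 58.2% of clusters. This count moved with single mice, and the shares of all clusters passing without each single mouse are not given here. With the BALB/cJ groups fitted alone, where 1.58% of clusters passed, the calls of Tek (adjusted p = 0.058), Aplnr (0.05) and Esm1 (0.0835) were lost. The count was 2 without mouse528, mouse619, mouse620, mouse624 or mouse631, and 3 without mouse513, mouse518, mouse522, mouse622, mouse623 or mouse632. Without mouse633 and mouse634 together it was 8, where 4.84% of clusters passed, and the 5 genes stood at -0.71 (Efnb2), -0.53 (Tek), -0.70 (Aplnr), -0.89 (Esm1) and 0.96 (Selp).

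**Figure D1:**
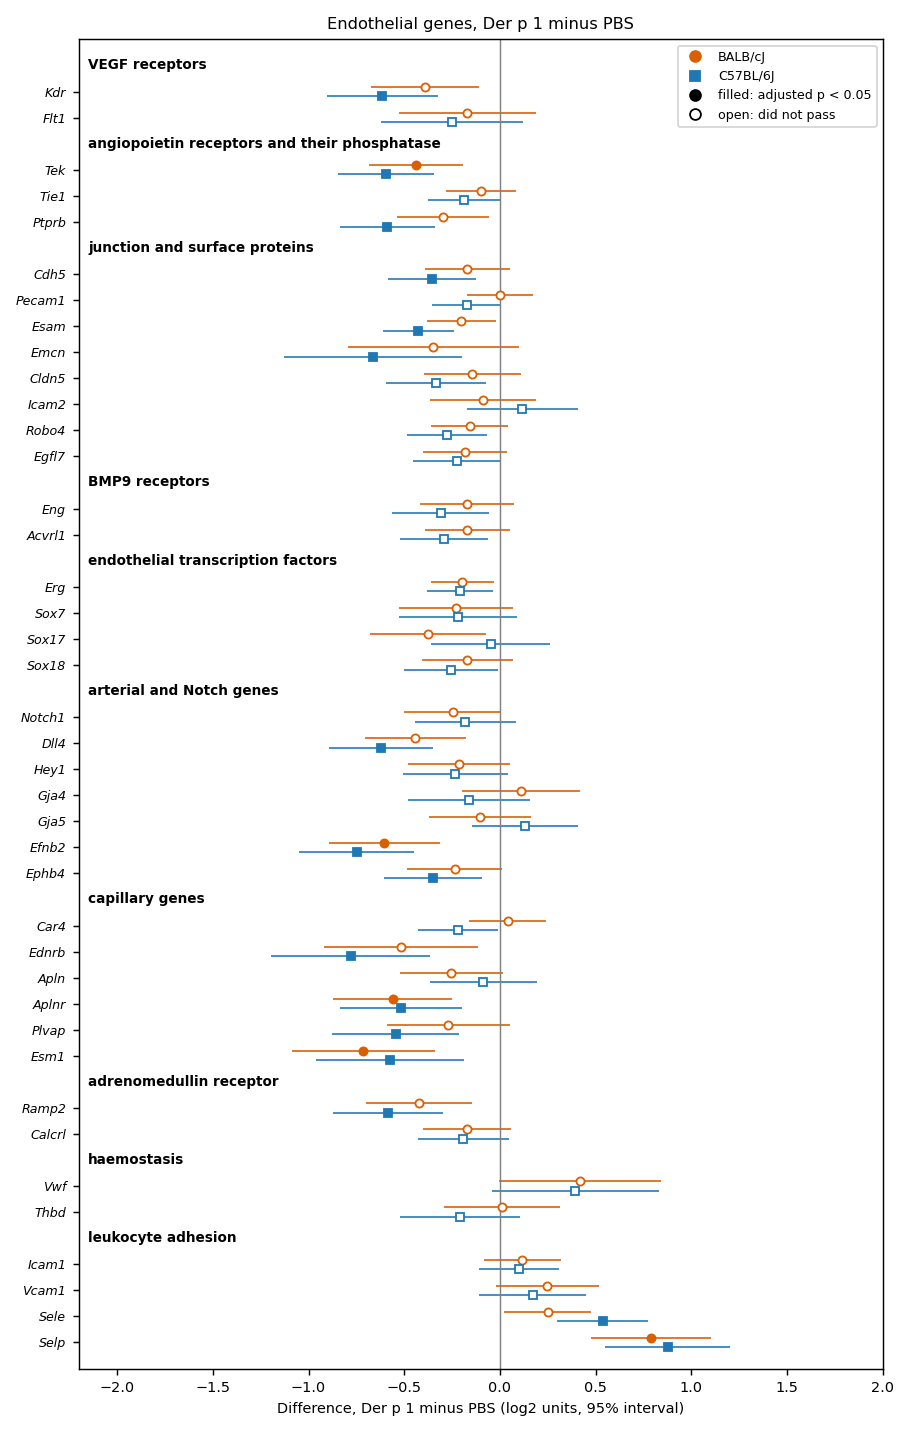
Difference in deposited log2 signal, Der p 1 minus PBS, of 40 endothelial genes grouped by role, with 95% intervals; circles are BALB/cJ (14 against 11 mice) and squares C57BL/6J (12 against 11 mice), filled where the adjusted p was under 0.05. Most points lie left of 0, with Efnb2 at -0.61 and -0.75, while Selp and Sele lie to the right.

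The receptors for vascular endothelial growth factor (VEGF) came first. Kdr, the main signalling receptor for VEGF-A on endothelium, had a lowest, median and highest level of 8.55, 9.26 and 9.92 in C57BL/6J Der p 1 mice, against 9.46, 9.94 and 10.16 in C57BL/6J PBS mice. The groups overlapped, but 8 of the 12 challenged mice lay below every PBS mouse. The difference was -0.61 ± 0.15 (SE), 1.53-fold lower, with limma's adjusted p of 0.00266. With array SD (the SD of each array over all clusters) as a covariate it was -0.41 (adjusted p = 0.0169), and across mice Kdr correlated with array SD at 0.65. In BALB/cJ the levels were 8.85, 9.81 and 10.36 after Der p 1, against 9.50, 10.32 and 10.56 after PBS. The BALB/cJ difference of -0.39 (95% interval -0.67 to -0.11) did not pass (adjusted p = 0.166). With array SD as a covariate it was -0.41 and passed (adjusted p = 0.0196). Flt1, a VEGF receptor known as a trap for the ligand, had differences of -0.17 in BALB/cJ and -0.25 in C57BL/6J, and neither passed.

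Of the angiopoietin system, Tek fell in both strains. It encodes Tie2, the receptor whose ligand angiopoietin-1 keeps vessels quiescent. Its lowest, median and highest levels were 9.57, 10.22 and 10.91 in BALB/cJ Der p 1 mice, against 10.25, 10.79 and 10.94 in BALB/cJ PBS mice. In C57BL/6J they were 9.20, 9.87 and 10.51 after Der p 1, against 10.13, 10.54 and 10.68 after PBS. Challenged mice were the lower ones in both strains, with 7 of 14 in BALB/cJ and 8 of 12 in C57BL/6J below every PBS mouse of their strain. The differences were -0.44 ± 0.12 (adjusted p = 0.0397) in BALB/cJ and -0.60 ± 0.13 (adjusted p = 8.99e-04) in C57BL/6J; the BALB/cJ call was lost when any 1 of 15 mice was left out, with adjusted p up to 0.0869. Ptprb, the phosphatase that restrains Tie2, fell in C57BL/6J to a mean of 10.33 ± 0.43 (SD), against 10.92 ± 0.20 in PBS mice (difference -0.59, adjusted p = 9.03e-04), and 9 of 12 challenged mice lay below every PBS mouse. In BALB/cJ its difference was -0.30 (adjusted p = 0.252). Tie1, the partner receptor of Tie2 with no ligand of its own, had differences of -0.10 in BALB/cJ and -0.19 in C57BL/6J that did not pass.

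Among arterial and Notch genes, Efnb2 showed the largest fall over both strains of the 40 genes. It encodes ephrin-B2, the ligand that marks arterial endothelium. Lowest, median and highest levels were 8.69, 9.44 and 10.13 in BALB/cJ Der p 1 mice, against 9.52, 10.27 and 10.48 in BALB/cJ PBS mice. The C57BL/6J values were 8.16, 8.89 and 9.64 after Der p 1, against 9.26, 9.64 and 10.14 after PBS. Every challenged mouse of both strains lay below the PBS mean of its strain, and 8 of 14 in BALB/cJ and 10 of 12 in C57BL/6J lay below every PBS mouse. The differences were -0.61 ± 0.14 (adjusted p = 0.0124) and -0.75 ± 0.15 (adjusted p = 5.54e-04). Averaged over the strains Efnb2 was 1.60-fold lower (adjusted p = 5.45e-06), with -0.61 within number series 5 and -0.70 within series 6.

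Dll4, the Notch ligand of arteries and sprouting tips, fell in C57BL/6J to levels of 7.41, 7.90 and 8.27 (lowest, median, highest), against 8.16, 8.43 and 8.84 after PBS. All but 1 of the 12 challenged mice lay below every PBS mouse, and the difference was -0.62 ± 0.14 (adjusted p = 0.00121). The BALB/cJ levels were 7.76, 8.59 and 9.43 after Der p 1, against 8.64, 9.10 and 9.40 after PBS, a difference of -0.44 that did not pass (adjusted p = 0.0634). It passed with the number series as a covariate, at the same -0.44 (adjusted p = 0.047). Ephb4, the venous receptor of ephrin-B2, fell in C57BL/6J by 0.35 (adjusted p = 0.0475), a call lost when any 1 of 16 mice was left out. Its BALB/cJ difference was -0.24 (adjusted p = 0.465). Notch1 and its target Hey1 had differences between -0.25 and -0.18 in each strain, and Gja4 and Gja5, connexins of arterial gap junctions, between -0.16 and 0.13; none of these passed.

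Promoter sequence is shown for Efnb2 and Tek, which of the 4 genes that fell in each strain had the smallest adjusted p over both (5.45e-06 and 2.69e-05). It was taken from RefSeq on GRCm38.p6, 250 bases before to 50 after the gene start, written 5′ to 3′ in the direction of the gene. Efnb2 is the interval chr8:8661193-8661492 on the minus strand and Tek is chr4:94739039-94739338 on the plus strand. Capitals mark exact matches, on either strand, to 6 motifs chosen after the values were seen. Factors of the ETS family are known to bind the word AGGAAG and forkhead factors the word TGTTTAC. For SOX factors the word was ACAAAG, and for GATA factors it was AGATAA. KLF factors were given GGGTG, and the last motif was a restricted form of the NF-kB consensus.
Efnb2: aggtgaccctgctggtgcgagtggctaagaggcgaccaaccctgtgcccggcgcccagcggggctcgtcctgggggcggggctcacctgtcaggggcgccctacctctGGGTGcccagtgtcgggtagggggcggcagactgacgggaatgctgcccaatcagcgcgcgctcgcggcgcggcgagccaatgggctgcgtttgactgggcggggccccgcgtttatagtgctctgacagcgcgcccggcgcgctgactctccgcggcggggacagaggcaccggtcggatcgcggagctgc
Tek: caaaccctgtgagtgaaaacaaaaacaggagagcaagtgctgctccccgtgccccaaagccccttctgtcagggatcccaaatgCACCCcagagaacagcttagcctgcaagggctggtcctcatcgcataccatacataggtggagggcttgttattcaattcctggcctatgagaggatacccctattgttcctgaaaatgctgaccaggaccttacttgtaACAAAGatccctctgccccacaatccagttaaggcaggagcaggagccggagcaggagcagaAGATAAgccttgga
The Efnb2 window holds 1 GGGTG, at position -142 from the start, and that of Tek an ACAAAG at -26, an AGATAA at 36 and, on the other strand, a GGGTG at -166 (each position that of the word's first base). Such words are common. GGGTG stood in 57.5% of 32851 mouse promoter windows of this length, ACAAAG in 18.7% and AGATAA in 11.2%. A promoter was in the table for 25 of the 41 genes, and 20 of them hold GGGTG, 5 ACAAAG and 2 AGATAA.

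The junction and surface proteins hold the vessel wall together. In C57BL/6J 3 of the 8 fell, where 8.97% of all clusters did. None of the 8 passed in BALB/cJ, where only 1.93% of all clusters did. Esam, a tight junction adhesion protein of endothelium, was at 9.26, 9.75 and 10.20 (lowest, median, highest) in C57BL/6J Der p 1 mice, against 9.98, 10.18 and 10.37 in PBS mice, with 8 of 12 challenged mice below every PBS mouse. Its difference was -0.43 ± 0.09 (adjusted p = 0.00112). Cdh5, VE-cadherin of the adherens junction, averaged 10.64 ± 0.39 in C57BL/6J Der p 1 mice and 10.99 ± 0.18 in PBS mice (SD, n = 12 and 11; difference -0.36, adjusted p = 0.0232), a call lost when any 1 of 2 mice was left out. With array SD as a covariate its difference was -0.28 (adjusted p = 0.0872).

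Emcn, a sialomucin of capillaries and veins, was at 7.78, 8.84 and 9.93 in C57BL/6J Der p 1 mice, against 8.31, 9.76 and 10.23 in PBS mice. The groups overlapped, and the difference was -0.66 ± 0.23 (adjusted p = 0.0374), a call lost when any 1 of 13 mice was left out. The SD of the arrays moved with Emcn: it averaged 1.86 ± 0.15 in C57BL/6J Der p 1 mice and 1.96 ± 0.11 in PBS mice, and across 48 mice, after subtracting group means, its correlation with Emcn was 0.87. With array SD as a covariate the C57BL/6J difference of Emcn was -0.21 (adjusted p = 0.269), and in BALB/cJ it was -0.39 and passed (adjusted p = 0.035). The part of array SD in this result was not tested further.

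Pecam1, an adhesion protein between neighbouring endothelial cells, stood at 10.81 ± 0.23 in BALB/cJ Der p 1 mice and 10.82 ± 0.12 in PBS mice. Its difference of -0.002 had a 95% interval from -0.17 to 0.17; in C57BL/6J it was -0.17 (adjusted p = 0.154). Icam2, a constitutive adhesion protein, had differences of -0.09 and 0.12. Cldn5, the main endothelial claudin, Robo4, a guidance receptor, and Egfl7, a secreted endothelial protein, had differences between -0.33 and -0.14 in single strains, none of which passed. Averaged over the strains Robo4 fell by 0.22 (adjusted p = 0.0253).

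Eng (endoglin) and Acvrl1 (ALK1), which together bind BMP9 and are in humans the genes of hereditary haemorrhagic telangiectasia, fell when the strains were averaged. Eng averaged 10.00 ± 0.33 in BALB/cJ Der p 1 mice and 10.17 ± 0.30 in PBS mice, and 9.80 ± 0.28 in C57BL/6J Der p 1 mice and 10.11 ± 0.30 in PBS mice. The mean difference was -0.24 ± 0.09 (adjusted p = 0.0444) for Eng, a call lost when any 1 of 26 mice was left out, and -0.23 ± 0.08 (adjusted p = 0.0316) for Acvrl1. Neither passed in a single strain. Of the transcription factors, the ETS factor Erg fell by 0.20 over both strains (adjusted p = 0.0112), with -0.20 in BALB/cJ and -0.21 in C57BL/6J. Sox7, Sox17 and Sox18, which act together in vessel development, did not pass; their differences ran from -0.38 (Sox17 in BALB/cJ) to -0.05 (Sox17 in C57BL/6J).

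The capillary genes held some of the larger falls. Esm1 (endocan), a proteoglycan secreted by activated and sprouting endothelium, was at 5.24, 6.44 and 7.29 in BALB/cJ Der p 1 mice, against 5.98, 7.0 and 8.44 in PBS mice. In C57BL/6J it was at 5.71, 6.18 and 6.60 after Der p 1, against 6.07, 6.57 and 7.56 after PBS. The groups overlapped in both strains, although all 12 challenged C57BL/6J mice lay below the PBS mean. The differences were -0.71 ± 0.19 (adjusted p = 0.0244) and -0.57 ± 0.19 (adjusted p = 0.0295). The BALB/cJ call was lost when any 1 of 6 mice was left out (adjusted p up to 0.0803), and the C57BL/6J call when any 1 of 4 was (up to 0.07). In C57BL/6J the difference was -0.18 within series 5 and -0.82 within series 6, and with array SD as a covariate it was -0.50 (adjusted p = 0.0888).

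Aplnr, the apelin receptor, was at 8.19, 8.98 and 9.79 in BALB/cJ Der p 1 mice, against 8.81, 9.58 and 10.19 in PBS mice. In C57BL/6J the levels were 7.24, 7.82 and 8.45, against 7.51, 8.46 and 9.01. The fall was 0.56 ± 0.15 in BALB/cJ and 0.52 ± 0.16 in C57BL/6J (adjusted p = 0.0381 and 0.0188). The BALB/cJ call was lost when any 1 of 14 mice was left out (adjusted p up to 0.101), and the C57BL/6J call with array SD as a covariate (-0.34, adjusted p = 0.115). Apln, its ligand, had differences of -0.25 in BALB/cJ and -0.09 in C57BL/6J that did not pass.

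Ednrb, the endothelin B receptor of alveolar capillaries, had the largest fall of the 40 genes in C57BL/6J. It stood at 7.30, 8.04 and 9.27 after Der p 1, against 7.54, 9.04 and 9.46 after PBS, and 11 of 12 challenged mice lay below the PBS mean. The difference was -0.78 ± 0.21 (adjusted p = 0.00684), and -0.44 (adjusted p = 0.0444) with array SD as a covariate. In BALB/cJ it was -0.52 ± 0.20 (adjusted p = 0.211), and with array SD as a covariate it was -0.55 and passed (adjusted p = 0.0128). Plvap, the protein of fenestral and caveolar diaphragms, averaged 9.85 ± 0.46 in C57BL/6J Der p 1 mice and 10.40 ± 0.43 in PBS mice (difference -0.55, adjusted p = 0.0176). With array SD as a covariate that difference was -0.32 (adjusted p = 0.122). Car4, a carbonic anhydrase of capillary endothelium, had differences of 0.04 in BALB/cJ and -0.22 in C57BL/6J, and neither passed. Ramp2 and Calcrl form the receptor for adrenomedullin, a peptide that tightens the endothelial barrier. Ramp2 fell in C57BL/6J to 9.93 ± 0.40, against 10.52 ± 0.22 in PBS mice (difference -0.59, adjusted p = 0.00359), while its BALB/cJ difference was -0.42 (adjusted p = 0.111). Calcrl had differences of -0.17 and -0.19 that did not pass.

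The selectins moved the other way. Selp encodes P-selectin, which is stored in endothelial granules (and in platelets) and starts leukocyte rolling. Its lowest, median and highest levels were 4.91, 6.06 and 6.48 in BALB/cJ Der p 1 mice, against 4.64, 5.10 and 6.06 in PBS mice. In C57BL/6J they were 5.43, 6.25 and 6.73 after Der p 1, against 4.84, 5.13 and 5.62 after PBS. In BALB/cJ 13 of 14 and in C57BL/6J 12 of 12 challenged mice lay above the PBS mean of their strain. The exceptions were the pair already named: mouse634 was the lowest challenged and mouse633 the highest PBS mouse. Selp rose by 0.79 ± 0.16 in BALB/cJ, 1.73-fold (adjusted p = 0.00161), and by 0.88 ± 0.16 in C57BL/6J, 1.83-fold (adjusted p = 2.65e-04). Over both strains the difference was 0.83 (adjusted p = 5.13e-07), with 0.66 within series 5 and 0.96 within series 6.

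Sele, E-selectin, which is made anew when cytokines activate endothelium, stood at 5.15, 5.69 and 6.21 in C57BL/6J Der p 1 mice, against 4.71, 5.21 and 5.73 in PBS mice, with 5 of 12 challenged mice above every PBS mouse. The difference was 0.54 ± 0.12 (adjusted p = 0.0013). In BALB/cJ its levels were 5.08, 5.44 and 5.81, against 4.86, 5.08 and 5.54, and the difference of 0.25 ± 0.11 did not pass (adjusted p = 0.345). Both selectins are dim, with mean signals above only 35.5% (Selp) and 31.1% (Sele) of clusters, where background can make a measured fold smaller than the change in RNA. Of platelet genes, 6 of which were measured, none rose in either strain; 1, Ppbp, named after its value was seen, fell in C57BL/6J by 0.80 (adjusted p = 0.0356), where all 6 differences lay below 0. Their mean level per mouse ran from 5.81 to 7.0 in BALB/cJ Der p 1 mice and 6.25 to 6.85 in BALB/cJ PBS mice, and from 6.04 to 7.74 in C57BL/6J Der p 1 mice and 6.26 to 7.36 in C57BL/6J PBS mice. Vcam1 and Icam1, ligands of leukocyte integrins, had differences of 0.25 and 0.12 in BALB/cJ and 0.17 and 0.10 in C57BL/6J, and none passed.

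The selectin promoters are shown because both genes rose when the strains were averaged. They come from the same table, window and search, on the plus strand, Selp at chr1:164115014-164115313 and Sele at chr1:164047984-164048283.
Selp: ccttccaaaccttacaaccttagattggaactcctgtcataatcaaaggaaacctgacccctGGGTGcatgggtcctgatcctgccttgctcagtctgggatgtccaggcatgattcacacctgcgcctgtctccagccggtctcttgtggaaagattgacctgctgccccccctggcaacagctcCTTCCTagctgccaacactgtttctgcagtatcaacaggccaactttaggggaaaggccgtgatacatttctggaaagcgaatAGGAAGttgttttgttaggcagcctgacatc
Sele: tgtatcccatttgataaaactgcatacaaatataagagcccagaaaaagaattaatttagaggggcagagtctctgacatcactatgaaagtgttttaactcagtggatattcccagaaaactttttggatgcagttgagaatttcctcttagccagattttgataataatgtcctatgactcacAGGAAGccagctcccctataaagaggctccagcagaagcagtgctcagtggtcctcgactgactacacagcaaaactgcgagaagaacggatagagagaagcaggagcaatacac
Selp holds AGGAAG at position 19 and, on the other strand, at -64, and a GGGTG at -188; Sele holds AGGAAG at -65. AGGAAG stood in 35.4% of the 32851 windows and in 12 of the 25 endothelial promoters. The restricted NF-kB form, in 1.63% of windows, and TGTTTAC, in 3.65%, were in none of the 25. NF-kB sites that differ from this form were not searched for. The promoters, that of Sele included, are thus not shown to lack NF-kB sites.

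Of the haemostasis genes, Vwf, the multimeric glycoprotein stored with P-selectin, was at 8.01, 9.40 and 9.95 in BALB/cJ Der p 1 mice, against 8.13, 8.81 and 9.30 in PBS mice. The C57BL/6J levels were 8.80, 9.53 and 10.30, against 8.20, 9.13 and 10.05. The groups overlapped, and the mean difference of 0.41 ± 0.15 just missed the threshold (adjusted p = 0.051). With the number series as a covariate it was 0.46 and passed (adjusted p = 5.17e-04). Thbd (thrombomodulin), an anticoagulant receptor, had differences of 0.01 and -0.21 that did not pass.

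**Figure D2:**
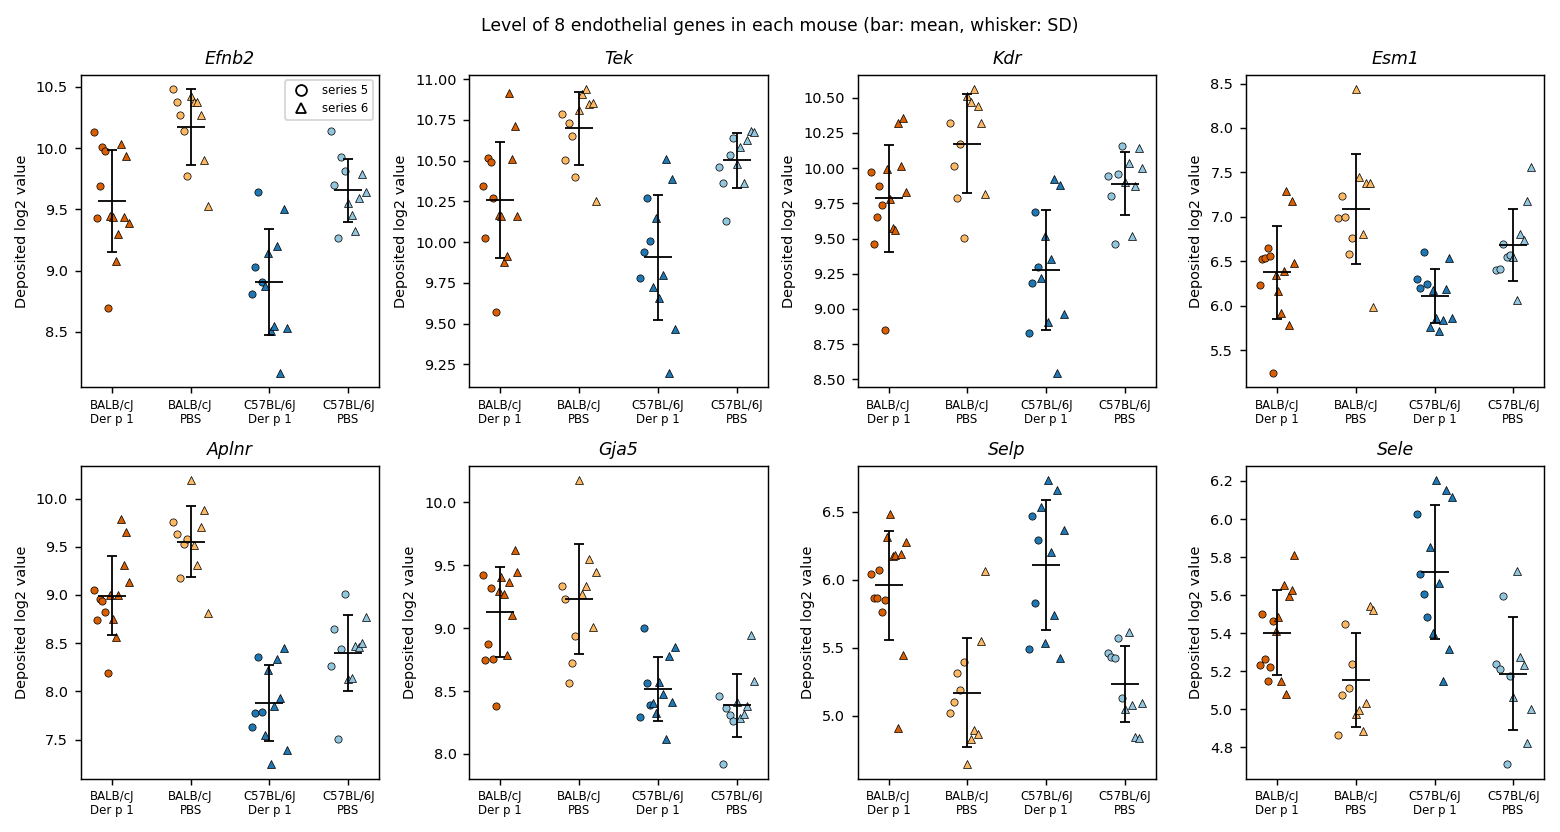
Deposited log2 signal of 8 endothelial genes in each of 48 mice, by group, with the mean as a bar and the SD as whiskers; circles are number series 5 and triangles series 6. Efnb2, Tek and Kdr lie lower and Selp higher in Der p 1 mice of both strains, and Aplnr and Gja5 lie higher in BALB/cJ than in C57BL/6J in both treatments.

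The response to Der p 1 was then compared between the strains as an interaction (BALB/cJ difference minus C57BL/6J difference). None of the 40 genes passed in limma, where 0.012% of clusters did, and none had an unadjusted p under 0.05, against 1810 clusters. No gene passed either when any 1 mouse was left out, or with array weights, where 10.5% of clusters did. The intervals were wide: -0.76 to 0.11 for Sox17 (difference -0.33), -0.62 to 0.04 for Sele (-0.29), -0.05 to 0.64 for Ptprb (0.29) and -0.33 to 0.96 for Emcn (0.32). For Selp the interval was -0.54 to 0.37 and for Efnb2 -0.27 to 0.56, so differences of that size between the strains were not detectable here. A gene that passed in C57BL/6J and not in BALB/cJ is thus not shown to respond differently.

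Between the strains, 3 of the 7 arterial and Notch genes and 1 of the 6 capillary genes differed after PBS. These 4 genes were higher in BALB/cJ and none lower, where 4.66% of clusters passed, 1.9% higher and 2.76% lower. Aplnr stood at 8.81, 9.58 and 10.19 (lowest, median, highest) in BALB/cJ PBS mice, against 7.51, 8.46 and 9.01 in C57BL/6J PBS mice. All but 1 of the 11 BALB/cJ mice lay above every C57BL/6J mouse, and the difference was 1.16 ± 0.16, 2.24-fold (adjusted p = 6.88e-07). Gja5, connexin 40 of arterial endothelium, was at 8.57, 9.27 and 10.18, against 7.92, 8.37 and 8.95, with 8 of 11 BALB/cJ mice above every C57BL/6J mouse (difference 0.85 ± 0.14, adjusted p = 2.03e-05). Dll4 was higher by 0.62 ± 0.14 (adjusted p = 0.00201) and Efnb2 by 0.52 ± 0.15 (adjusted p = 0.0319), a call lost when any 1 of 10 mice was left out. The largest differences that did not pass were -0.43 for Vwf, 0.41 for Esm1 and 0.37 for Sox17.

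After Der p 1 10 genes were higher in BALB/cJ and 1 lower, where 13.3% of clusters passed, 6.42% higher and 6.87% lower. Centring each array on its median left 10 of the endothelial genes higher and none lower, where 8.69% of clusters were higher and 4.94% lower. Of all calls 36.3% were then lower in BALB/cJ, against 51.7% as deposited. Aplnr was at 8.19, 8.98 and 9.79 in BALB/cJ, against 7.24, 7.82 and 8.45 in C57BL/6J, and 13 of 14 BALB/cJ mice lay above every C57BL/6J mouse. Its difference was 1.12 ± 0.15 (adjusted p = 2.28e-07), that of Dll4 0.80 ± 0.13 (adjusted p = 7.94e-06), of Efnb2 0.66 ± 0.14 and of Gja5 0.61 ± 0.13.

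Car4 was higher by 0.52 ± 0.10 (adjusted p = 1.37e-04), with all 14 BALB/cJ mice above the C57BL/6J mean. Esam (0.42), Cldn5 (0.42), Kdr (0.51), Gja4 (0.48) and Tek (0.35) were also higher, and Sele was lower by 0.32 (adjusted p = 0.0454). With array SD as a covariate the adjusted p was 0.0581 for Kdr, 0.206 for Tek, 0.0699 for Cldn5 and 0.173 for Sele. Without mouse633 and mouse634 it was 0.0754 for Tek and 0.0772 for Sele. Quantile normalization ended the calls of Tek, Cldn5, Gja4 and Sele, with adjusted p of 0.163, 0.122, 0.131 and 0.119. Efnb2, Dll4 and Aplnr thus had lower values after Der p 1 and higher values in BALB/cJ; the challenge and strain comparisons share mice, so these values stand side by side and are not separate evidence. Probes over sequence that differs between the strains could not be masked in the deposited values, and their part in the strain differences was not tested.

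**Figure D3:**
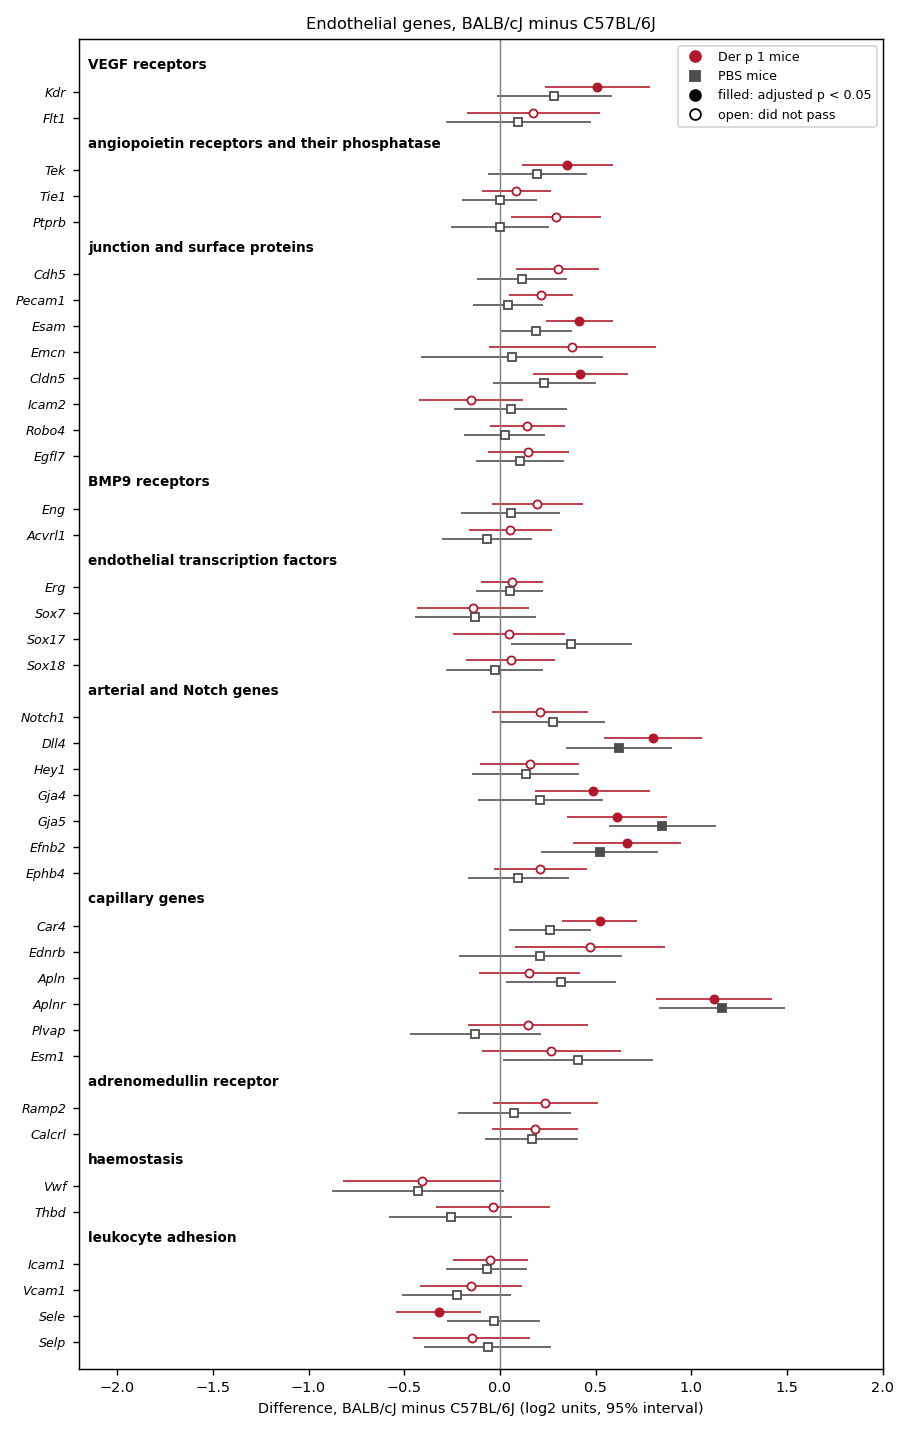
Difference in deposited log2 signal, BALB/cJ minus C57BL/6J, of 40 endothelial genes by role, with 95% intervals; circles are Der p 1 mice (14 against 12) and squares PBS mice (11 against 11), filled where the adjusted p was under 0.05. Aplnr lies at 1.12 after Der p 1 and 1.16 after PBS, and Dll4, Gja5 and Efnb2 are filled in both.

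Within the number series the direction of the calls held. Over both strains 9 genes passed among series 5 mice alone, where 6.1% of clusters did, and 18 among series 6 mice, where 18.3% did. The 20 called in all mice kept their direction in each series. They were picked in the same mice that make up the series, so this is largely built in and no separate evidence. Series 5 held 6 BALB/cJ Der p 1, 5 BALB/cJ PBS, 4 C57BL/6J Der p 1 and 5 C57BL/6J PBS mice, and series 6 held 8, 6, 8 and 6. The differences within series 5 and series 6 were -0.42 and -0.59 for Tek, -0.49 and -0.52 for Kdr, -0.58 and -0.47 for Dll4 and -0.62 and -0.48 for Aplnr. They lay further apart for Plvap (-0.71 and -0.22), Esm1 (-0.40 and -0.81), Sox17 (-0.01 and -0.40) and Cldn5 (0.06 and -0.47). In BALB/cJ alone, 1 gene, Selp, passed in series 5 (0.71, adjusted p = 0.0188), where 0.796% of clusters did, and none in series 6, where none of the 16715 clusters did; Selp was at 0.86 there, Efnb2 at -0.55 and -0.64 and Tek at -0.41 and -0.47.

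The strain differences after PBS were 1.16 in series 5 and 1.16 in series 6 for Aplnr, 0.70 and 0.98 for Gja5, 0.57 and 0.67 for Dll4 and 0.44 and 0.59 for Efnb2. After Der p 1 none of the 40 genes passed in series 5, with 6 against 4 mice and 1.31% of clusters passing. There Aplnr was at 0.90 in series 5 and 1.28 in series 6, Dll4 at 0.47 and 1.01, Gja5 at 0.35 and 0.79, Efnb2 at 0.56 and 0.70 and Car4 at 0.54 and 0.53.

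**Figure D4:**
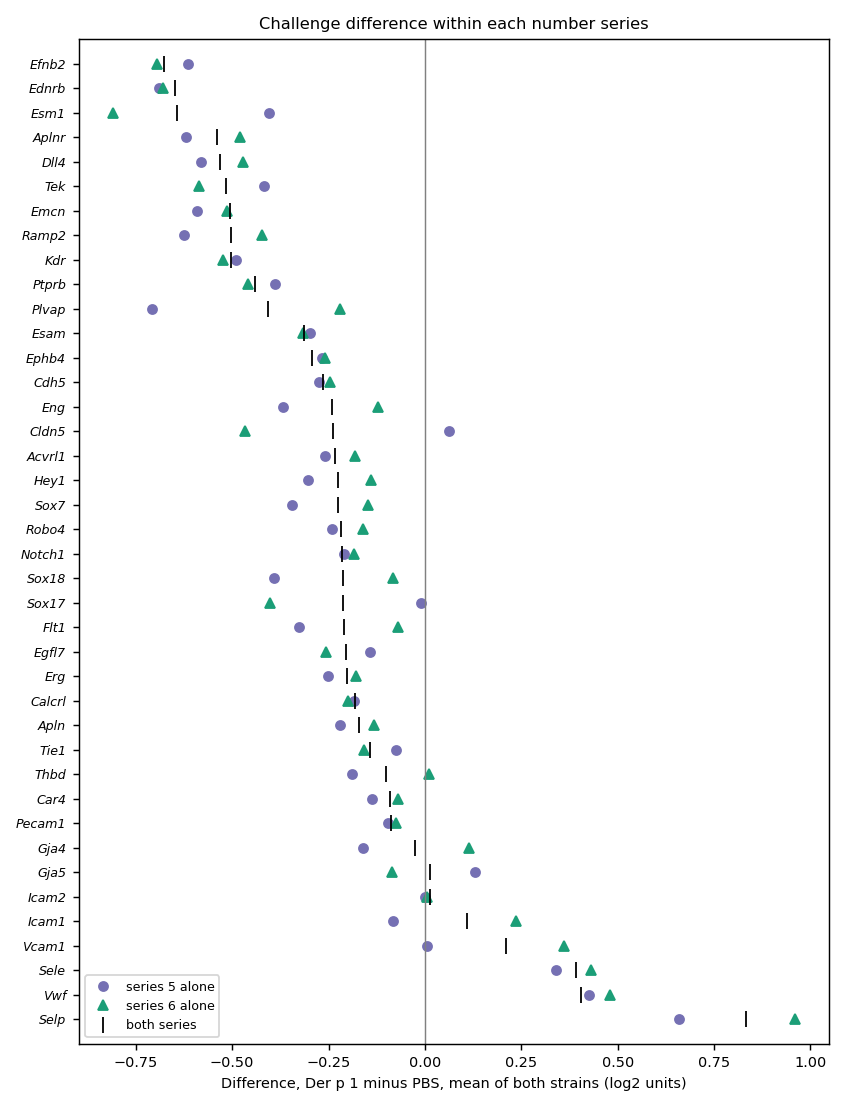
Difference in deposited log2 signal, Der p 1 minus PBS averaged over both strains, of 40 endothelial genes among mice of number series 5 alone (circles), series 6 alone (triangles) and all mice (bars). Efnb2, Ednrb and Kdr lie close together in both series, and Cldn5 lies at 0.06 in series 5 and -0.47 in series 6.

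Other genes of the same pathways, listed with earlier results of these data known, were counted in the same fit. For comparison with this and the following lists, 8.97% of all clusters fell and 9.85% rose in C57BL/6J. Over both strains the shares were 9.8% and 9.56%, and in BALB/cJ 0.233% and 1.7%. Of 15 ligands of the measured receptors, 3 fell and 1 rose in C57BL/6J, and over both strains 5 fell and 1 rose. None passed in BALB/cJ. Angpt1, angiopoietin-1, the activating ligand of Tie2 made by mural cells, fell by 1.20 ± 0.27 in C57BL/6J (adjusted p = 0.00154) and had a difference of -0.56 in BALB/cJ (adjusted p = 0.347). Vegfc, a growth factor of lymphatic vessels, fell by 0.49, and Angpt2, the antagonist ligand of Tie2, by 0.36 in C57BL/6J, while Vegfb rose by 0.27. Edn3, a ligand of Ednrb, fell by 0.24 over both strains.

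Of 16 partners and targets, 6 fell in C57BL/6J, 7 over both strains and none in BALB/cJ, and none rose. The largest in C57BL/6J were Angptl4, a lipoprotein lipase inhibitor (-0.63), Bmpr2, the type II partner of Acvrl1 (-0.61), Hes1, a Notch target (-0.52), and Smad6, an inhibitory target of BMP signals (-0.48). Of 27 further endothelial genes, 9 fell and 1 rose in C57BL/6J, 11 fell over both strains and none passed in BALB/cJ. Adgrl4 (-0.79), the forkhead factor Foxf1 (-0.73), the surface lectin Clec14a (-0.71) and the endothelial gene Myct1 (-0.70) fell furthest there.

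Between the strains after Der p 1, 4 of the ligands were higher and 1 lower in BALB/cJ, led by Angpt1 (0.92), Adm, which encodes adrenomedullin (0.76), Slit2, a ligand of the Robo family (0.48), and Vegfc (-0.39). Of the partners 2 were higher and 1 lower (Pdgfb 0.41, Klf2 -0.39, Nrp1 0.38), and of the further endothelial genes 3 were higher and 2 lower, with Foxf1 (0.69), Procr (0.65), Gpihbp1 (0.58) and Ushbp1 (-0.41) the largest. Of all clusters 6.42% were higher and 6.87% lower in BALB/cJ after Der p 1. After PBS only Vegfc (-0.66), Unc5b (0.41) and Procr (0.95), the endothelial protein C receptor, passed on these 3 lists. Of all clusters 4.66% passed after PBS. No gene of the 3 lists passed in the interaction.

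Markers of other lung cells also moved with the challenge, and their part in the endothelial results was not tested. All 7 dividing-cell genes rose in each strain (median difference 1.30 in BALB/cJ and 1.45 in C57BL/6J). Their mean level per mouse ran from 5.36 to 7.69 in BALB/cJ Der p 1 mice and 5.02 to 7.21 in PBS mice, and from 5.78 to 7.81 in C57BL/6J Der p 1 mice and 5.0 to 6.04 in PBS mice. Of 8 leukocyte genes none passed in a single strain, with medians of 0.17 and 0.30. Their mean level ran from 8.45 to 9.98 in BALB/cJ Der p 1 mice and 8.48 to 9.72 in PBS mice, and from 7.85 to 10.03 in C57BL/6J Der p 1 mice and 8.29 to 9.76 in PBS mice.

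Genes of cells next to the capillaries fell in C57BL/6J as well. Of 8 pericyte genes 4 fell there and none in BALB/cJ (medians -0.33 and -0.17), with mean levels of 6.87 to 7.46 in C57BL/6J Der p 1 mice and 7.14 to 7.66 in PBS mice. Of 7 alveolar type I genes 4 fell in C57BL/6J and 1 in BALB/cJ (medians -0.42 and -0.22), with mean levels of 9.78 to 10.69 in C57BL/6J Der p 1 mice and 10.25 to 10.68 in PBS mice. Of 8 alveolar type II genes 1 fell in C57BL/6J and none in BALB/cJ, where 8.97% and 0.233% of all clusters fell. In BALB/cJ 3 of 8 smooth muscle genes and 3 of 8 fibroblast genes, the collagens Col1a1, Col1a2 and Col3a1, rose (named after their values were seen); in C57BL/6J 1 smooth muscle gene fell, and the same 3 collagens rose while 2 fibroblast genes fell. Of the 4 heart muscle genes none passed, and of 8 mesothelial genes 2 fell in C57BL/6J.

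Within groups, the endothelial genes varied in blocks. After the mean of its group was subtracted from each mouse, the median Pearson correlation over 780 pairs of genes was 0.28 across 48 mice, 581 pairs lay above 0, and the median was 0.27 after the number series and array SD were removed as well. The genes of a mouse share its arrays, so these values are a description with no test. Eng, Acvrl1 and Ephb4 formed a tight block (0.90 for Eng with Acvrl1 and for Acvrl1 with Ephb4). Kdr followed Tek (0.88), Ptprb followed Cdh5 (0.87), and Emcn followed Ednrb (0.89). Array SD correlated with Emcn at 0.87, with Calcrl at 0.75, with Ednrb at 0.74, with Kdr at 0.65 and with Plvap at 0.61. Selp and Sele correlated at 0.55 with each other and had negative mean correlations with the other genes (-0.24 and -0.26), while the means of Vwf and Gja5 were near 0 (-0.07 and 0.00). For Vwf this mean joined strong correlations of both signs, such as 0.76 with Notch1 and 0.73 with Flt1, against -0.73 with Emcn and -0.71 with Ednrb.

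**Figure D5:**
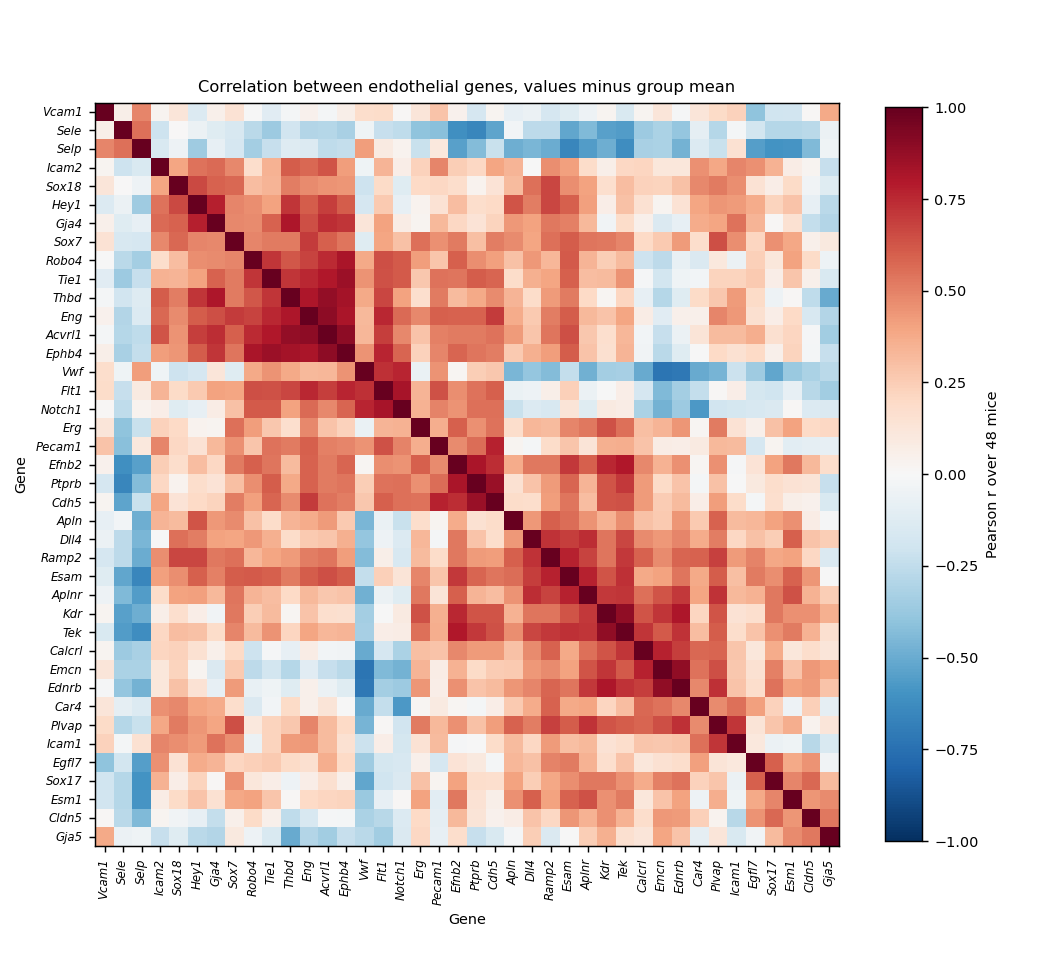
Pearson correlation between 40 endothelial genes over 48 mice, after subtracting group means; red is positive and blue negative, and genes are ordered by clustering. Eng, Acvrl1 and Ephb4 form one red block and Kdr, Tek, Emcn and Ednrb another, and Selp and Sele are blue against most genes.

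The other genes whose values followed the mean of the standardised endothelial residuals most closely across the 48 mice were Jup, the junction protein plakoglobin (r = 0.90), Foxf1 (0.89), Faim2 (0.88), Aldh2 (0.86), Cyp2f2 (0.85), Slc6a9 (0.85), Fzd8 (0.85), Rras (0.85), Slco3a1 (0.85) and Gprc5a (0.85). The median over the 14784 other genes was -0.09. Once number series and array SD were removed, Faim2 (0.87), Jup (0.87), Jun (0.87), Smad6 (0.85) and Foxf1 (0.83) led. The mean endothelial residual itself correlated with array SD at 0.37.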

How the data were processed

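Whole-lung RNA of 48 mice was measured on 62 Affymetrix mouse exon arrays. The authors deposited 1 RMA value per transcript cluster, made from core exons with Partek, per the labels and the submitters' processing notes. The log2 scale of the deposited values is read from their range and from RMA's usual output. Values ran from 1.27 to 13.8, with array medians of 6.39 to 6.62 and array SDs of 1.44 to 2.09. Arrays of a mouse were averaged (7 mice had 3 arrays, the others 1), and groups came from the sample labels. Differences were tested in 1 fit of the 4 groups over 16715 clusters with limma 3.58.1 in R 4.3.3 (lmFit and eBayes), with Benjamini-Hochberg adjustment over all clusters and a threshold of 0.05. No filter on dim clusters was applied. The number of arrays limits the precision. Of the clusters, 14959 carried 1 symbol, 1016 several and 740 none; only the first kind was named.

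The members and lists were chosen with earlier results of these data known. All endothelial genes could be named. Of the pathway lists the 4 largest calls per comparison were named, and of genes outside the lists the 10 most alike over the 48 mice. The fit was checked on simulated data. Alternatives changed the scaling, repeat arrays, weights, prior, dim clusters, covariates, number series and mice. Promoters came from a RefSeq table on GRCm38.p6 and serve as description.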

Additional observations from a re-analysis of the deposited data

How the results depend on the processing

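No called gene reversed its direction under any alternative run, but the counts of calls moved. These runs reuse the mice that gave the calls, so the kept direction is no separate evidence. For BALB/cJ after Der p 1 the 5 calls (1.93% of all clusters passing) became 13 with array weights (8.14%), 2 with the compared groups alone (1.58%), 1 in series 5 (0.796%), 0 in series 6, where no cluster passed, 10 with array SD as a covariate (4.48%) and 8 without mouse633 and mouse634 (4.84%). With series and array SD as covariates together there were 11 (6.79%), and 8 in series 6 without that pair of mice (5.52%); both settings were chosen after seeing the data. For C57BL/6J the 16 (18.8%) became 1 in series 5 (1.82%) and 9 with both covariates (8.51%). For the mean of both strains the 20 (19.4%) became 9 in series 5 (6.1%). For BALB/cJ against C57BL/6J after PBS the 4 (4.66%) became 7 with array weights (10.6%) and 1 in series 5 (1.65%). After Der p 1 the 11 (13.3%) became 7 with quantile normalization (12.6%), 0 in series 5 (1.31%), 7 with array SD as a covariate (10.6%) and 6 with both covariates (10.0%). In the settings listed here the members' counts moved in the same direction as the shares of all clusters. This did not hold for every run. With quantile normalization 12 genes fell and 3 rose for the mean of both strains, where 20.8% of clusters passed. As deposited 18 fell and 2 rose, where 19.4% passed. Series 5 holds fewer mice than series 6. The cause of these moves was not tested, and the part of the number of mice was not tested either. Leaving out 1 mouse at a time gave 2 to 7 calls in BALB/cJ, 13 to 20 in C57BL/6J, 18 to 24 for the mean, 0 for the interaction, 3 to 4 between strains after PBS and 8 to 14 after Der p 1. The shares of all clusters passing in these runs are not given, so these ranges are not read as particular to the endothelial genes. The compared groups alone give no value for the interaction and the mean, which need all 4 groups. No paired analysis was possible because the replicate numbers of the titles count repeat arrays of a single animal, and no label pairs animals across groups.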
